A study of Mus musculus with 6 samples.

Results

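The 8 genes described here act in mitochondrial uncoupling and in the removal of superoxide. They were followed in mouse embryonic fibroblasts, primary connective tissue cells grown out of embryos, with and without stanniocalcin-1, a secreted glycoprotein encoded by Stc1. They are Ucp2, Ucp3, Sirt3, Sod1, Sod2, Sod3, Cat and Ppargc1a, chosen by name because stanniocalcin-1 is reported to act through UCP2 and SIRT3, and each matched a single locus of its own among the 36812 named loci used. The study compared 3 libraries of STC1+/+ WT cells with 3 of STC1-/- KO cells, all on a C57BL/6 background and all grown in DMEM with fetal calf serum, penicillin and streptomycin. The labels do not give the age or sex of the embryos, the part of Stc1 that was disrupted, or whether each library stands for its own embryo or culture. The p-values therefore measure only the spread between these libraries, which may be technical.

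Mitochondria release superoxide when electrons leak from the respiratory chain to oxygen. Superoxide dismutases turn superoxide into hydrogen peroxide, in the cytosol (SOD1), in the mitochondrial matrix (SOD2) and outside the cell (SOD3), and catalase breaks hydrogen peroxide down in peroxisomes. UCP2 and UCP3 are carriers of the inner mitochondrial membrane that are reported to lower superoxide release by mild uncoupling; Ucp2 is known for high levels in macrophages and Ucp3 for skeletal muscle and brown fat. SIRT3 is the main deacetylase of the mitochondrial matrix and activates SOD2 among other enzymes. PGC-1alpha, the product of Ppargc1a, is a coactivator that raises transcription of mitochondrial and antioxidant genes.

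Upstream sequence is shown for Ucp2, Ppargc1a and Sod2, since the levels of these genes varied most between the libraries among the 7 tested (184.5-fold, 8.02-fold and 4.89-fold from the lowest to the highest). The sequences are from RefSeq on GRCm38.p6 (mm10) and end before the first base of the locus in the deposited files. They run 5′ to 3′ on the gene's own strand, and capitals mark motif matches on either strand. RefSeq promoter entries were found for 7 of the 8 genes, all but Sod3.
Ucp2, chr7:100493108-100493336, plus strand: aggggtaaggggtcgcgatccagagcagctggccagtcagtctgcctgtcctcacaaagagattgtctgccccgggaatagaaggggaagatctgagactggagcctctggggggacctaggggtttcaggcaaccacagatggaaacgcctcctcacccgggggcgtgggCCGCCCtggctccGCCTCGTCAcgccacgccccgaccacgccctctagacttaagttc
Ppargc1a, chr5:51567726-51567975, minus strand: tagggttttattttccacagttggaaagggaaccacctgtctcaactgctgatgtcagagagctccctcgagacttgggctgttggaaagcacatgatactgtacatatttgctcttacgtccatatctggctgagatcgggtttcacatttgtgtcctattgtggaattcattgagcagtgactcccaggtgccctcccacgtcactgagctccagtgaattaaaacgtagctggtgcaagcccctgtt
Sod2, chr17:13007589-13007823, plus strand: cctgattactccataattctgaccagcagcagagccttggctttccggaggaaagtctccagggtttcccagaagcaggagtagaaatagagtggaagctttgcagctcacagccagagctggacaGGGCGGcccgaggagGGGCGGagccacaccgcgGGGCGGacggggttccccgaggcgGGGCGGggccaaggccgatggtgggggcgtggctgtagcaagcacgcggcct

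The 5 motifs searched on both strands were the GC box GGGCGG, the antioxidant response element TGACNNNGC, the cyclic AMP response element TGACGTCA, the E-box CACGTG and the PU.1 motif GAGGAAGT. The Sod2 window held 4 GC boxes and none of the other motifs. The Ucp2 window held 1 GC box and 1 antioxidant response element, and the Ppargc1a window held no match. Over all 32851 promoter entries, 32.7% of the 250-base upstream windows held a GC box and 10.2% an antioxidant response element. The other 3 motifs were in 1.55% (cyclic AMP response element), 6.02% (E-box) and 2.44% (PU.1 motif) of all windows and in none of these 3 windows. The Sod2 and Ucp2 sequences were 64.7% and 63.3% G or C, and the Ppargc1a sequence 48.0%, against a median of 52.4% over all windows. A match is a run of letters only, and binding was not measured.

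All 8 are protein-coding genes. Ucp3 and Ucp2 are neighbours on the plus strand of chromosome 7 in mm10, at chr7:100472990-100486432 and chr7:100493337-100502020, with 6904 bases between them and up to 7 and 8 exons. Sirt3 lies on the minus strand of the same chromosome at chr7:140860672-140882309 (up to 7 exons). Sod1 is at chr16:90220742-90226322 (5 exons), Sod2 at chr17:13007824-13020375 (5 exons) and Sod3 at chr5:52363946-52371405 (2 exons). Cat lies at chr2:103453849-103485160 and Ppargc1a at chr5:51454249-51567725, both on the minus strand with up to 13 exons. Genes on the other strand overlap Ucp2 (Dnajb13), Ucp3 (Gm10603), Sirt3 (Ric8a and Psmd13), Sod1 (Scaf4) and Ppargc1a (Gm42613). On its own strand Ppargc1a overlaps Gm42614, Gm42615 and Gm43605, so that its fragments may be shared with them. The library kit keeps strand, but the sources used here do not give whether the counting used strand.

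The libraries held 21882092 to 71488701 estimated fragments. Stc1 itself stood at 6.82 to 31.8 CPM in the wild-type libraries (CPM, the fragments of a gene as a share of its library after TMM scaling, in parts per 1000000), and 6, 0 and 0 of its fragments were found in knockout replicates 1 to 3. All 11 fibroblast markers measured were present in each library, with summed levels of 12200 to 34400 CPM in wild-type and 5910 to 9900 CPM in knockout cells. Collagen genes weighed most in the sum, with Col1a1 and Col1a2 at 12000 and 10000 CPM in wild-type replicate 2. Log2 fold changes were negative for 9 of the 11 and positive for Pdgfra and Dcn. Every knockout library lay below the wild type for 3, against 5.44% of all genes tested. Neither edgeR nor DESeq2 called any, and edgeR had 2 at an unadjusted p under 0.05. The 16 macrophage markers measured summed to 413, 1830 and 15000 CPM in the wild-type replicates, and to 2050, 543 and 594 CPM in knockout replicates 1 to 3. All 15 of them that were tested had negative log2 fold changes with overlapping groups; edgeR called none and had 4 at an unadjusted p under 0.05, and DESeq2 called 3. None of the 16 was at 0 in any library, but 7 were under 1 CPM in wild-type replicate 1. Cd68 and Fcer1g share their loci with other genes and were at 183 CPM or more everywhere. These 2 loci made up most of the marker sum in wild-type replicate 1 (200 and 183 CPM). They did so too in knockout replicates 2 (239 and 184 CPM) and 3 (242 and 201 CPM), so the sums understate the contrast between libraries. Of 9 skeletal muscle markers found, Myod1, Myog, Myf5 and Ckm were at 0.0468 CPM or less in every library, and Chrna1 (up to 6.97 CPM) and Tnni1 (up to 2.04 CPM) were the 2 that passed 1 CPM in any. Tnnt3 was below the wild type in every knockout library, at 0.867 CPM or less in all 6 (edgeR unadjusted p = 0.00944, adjusted p = 0.763). Of 8 fat cell markers, Adipoq, Plin1, Cidec, Cidea and Lep were at 0.248 CPM or less, while Fabp4 (6.68 to 78.3 CPM), Pparg (4.18 to 19.3 CPM) and Lpl (16 to 1160 CPM) were present, all highest in wild-type replicate 3. The 8 endothelial markers summed to 6.88 to 24.6 CPM in wild-type and 7.08 to 12.2 CPM in knockout libraries; all 5 tested had negative log2 fold changes, Tek without overlap, and none was called by edgeR or DESeq2. The part of other cell types in the results below was tested for the macrophage markers alone.

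None of the 8 genes was called different between the genotypes. Ppargc1a was the only one whose groups did not overlap, with every knockout library above every wild-type library. Of all genes tested, 10.6% had non-overlapping groups, 5.18% with the knockout above. Sod2 and Sod3 were higher on average in knockout cells and Ucp2 lower, each with overlapping groups, while the means of Sirt3, Sod1 and Cat lay close together. The filter on low counts passed 7 of them, all but Ucp3. edgeR's quasi-likelihood test called 0 of the 7 at an adjusted p under 0.05, and 0 of all 15673 genes tested (0%). At an unadjusted p under 0.05 it had 1 of the 7, Ppargc1a, against 3.87% (607) of all genes (1.60% higher and 2.27% lower). Adjusted p-values follow Benjamini and Hochberg over all genes tested. DESeq2 also called 0 of the 7, and it called 61 of 18613 genes (0.328%). Of the 7 log2 fold changes 6 were above 0, with a median of 0.07, against 44.4% above 0 and a median of -0.05 over all genes tested.

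**Figure D1:**
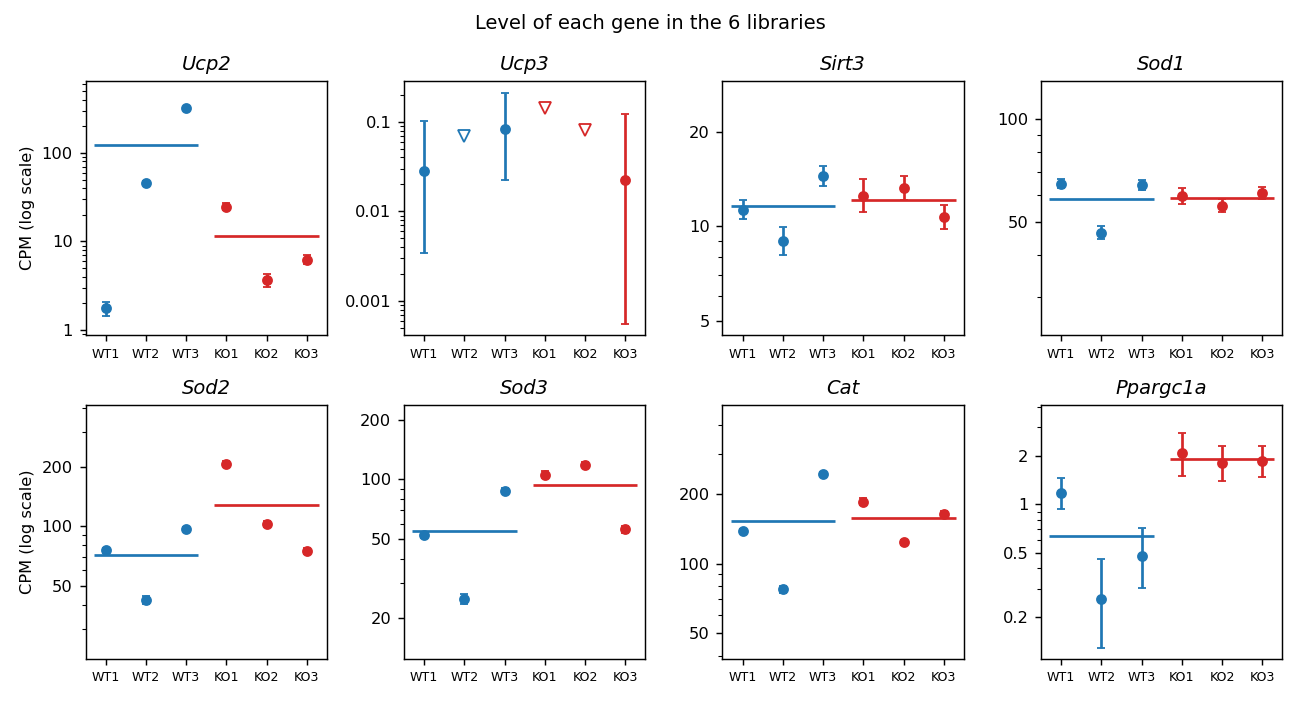
CPM of each gene on a log axis in wild-type (WT, blue) and knockout (KO, red) replicates 1 to 3; bars are exact 95% Poisson intervals for counting error, horizontal lines are group means (not drawn for Ucp3), and open triangles mark the level of 3 counts where none was found. Ppargc1a is the only gene with all knockout points above all wild-type points, and Ucp2 spans 1.75 to 323.9 CPM within the wild type.

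Ucp2, lower on average in knockout cells, varied 184.5-fold within the wild type, while the genotype means differed 10.7-fold. Its level was 1.75, 45.7 and 323.9 CPM in wild-type replicates 1 to 3, from 124, 1953 and 15655 fragments. It was 24.7, 3.67 and 6.26 CPM in knockout replicates 1 to 3, from 525, 137 and 282 fragments. Wild-type replicate 3 was thus the highest of all libraries and wild-type replicate 1 the lowest, with the 3 knockout libraries in between and below wild-type replicates 2 and 3. The means were 123.8 ± 174.7 CPM in wild-type and 11.5 ± 11.4 CPM in knockout cells (SD, n = 3 each), so each SD was about as large as its mean. The log2 fold change was -3.43 (SE 1.73), with a 95% interval from -7.67 to 0.80 (edgeR adjusted p = 0.763). A two-sided exact permutation test over the libraries gave p = 0.6, where 3 against 3 libraries allow no p below 0.1. In the authors' deposited table Ucp2 stands at 67.0 FPKM (a level corrected for the length of the transcript and the depth of the library) in wild type and 6.68 FPKM in knockout, a log2 fold change of -3.33 with a q-value of 1.

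The order of the 6 libraries by Ucp2 was the order by the mean log2 level of the macrophage markers. By their summed CPM, given above, knockout replicate 1 and wild-type replicate 2 changed places. Most single markers were also higher in knockout replicate 1 than in wild-type replicate 2, such as Adgre1 (168 against 74.7 CPM). Others were lower there, such as C1qa (2.91 against 90.5 CPM). The mean of the 16 markers was 1.76, 6.54 and 9.44 on the log2(CPM + 0.5) scale in wild-type replicates 1 to 3 and 5.59, 3.03 and 3.23 in knockout replicates 1 to 3. Ucp2 and this mean ran upward from wild-type replicate 1 through knockout replicates 2, 3 and 1 to wild-type replicates 2 and 3. Fewer macrophages and less Ucp2 RNA per cell cannot be told apart in RNA from a whole culture. With the marker mean as a covariate the Ucp2 log2 fold change was 0.10 (edgeR adjusted p = 0.974). Without wild-type replicate 3 it was -1.05, and without the 3 libraries richest in these markers, which leaves 1 wild-type library, it was 1.5 (adjusted p = 1).

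**Figure D2:**
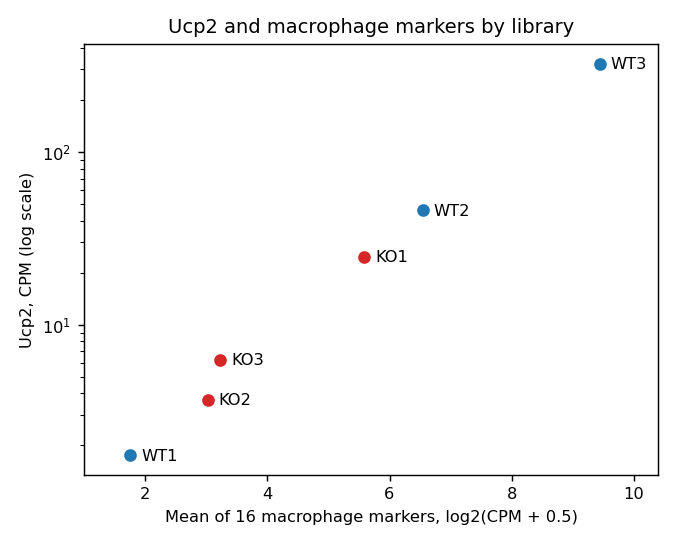
Ucp2 in CPM (log axis) against the mean of 16 macrophage markers on the log2(CPM + 0.5) scale, 1 point per library (WT blue, KO red). The libraries stand in the same order on both axes, from wild-type replicate 1 (1.75 CPM of Ucp2) to wild-type replicate 3 (323.9 CPM).

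Relative to the marker sum, Ucp2 was also uneven. It stood at 4.25, 25 and 21.7 CPM per 1000 CPM of summed macrophage markers in wild-type replicates 1 to 3, and at 12, 6.77 and 10.5 in knockout replicates 1 to 3. The 2 wild-type libraries rich in these markers had the highest ratios and wild-type replicate 1 the lowest. In wild-type replicate 1 and knockout replicates 2 and 3 the sum came mostly from the shared loci of Cd68 and Fcer1g, which lowers their ratios. The genes whose log2 CPM followed Ucp2 most closely over the 6 libraries, out of 11727 compared, were Cd72, a receptor of B cells and some myeloid cells, and the amino acid transporter gene Slc7a8 (Pearson r = 0.9979 and 0.9974). With so few libraries and so many genes, high values of r are found for every member, and they are given as a description.

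Ucp3 was close to undetected. It had 2, 0 and 4 fragments in wild-type replicates 1 to 3 and 0, 0 and 1 in knockout replicates 1 to 3. The highest level was 0.0828 CPM, in wild-type replicate 3, with an exact 95% Poisson interval reaching 0.212 CPM. Where no fragment was found, the same interval reached 0.0864 CPM in wild-type replicate 2 and 0.173 and 0.0989 CPM in knockout replicates 1 and 2. The level of 3 counts, drawn in the figure, was 0.0703 CPM in wild-type replicate 2 and 0.141 and 0.0805 CPM in knockout replicates 1 and 2. A difference between the genotypes was not detectable at this depth. Ucp1, the uncoupling protein of brown fat, was equally scarce, at 0.103 CPM or less in every library, and did not pass the filter either.

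The other carriers of this family listed for comparison differed little. Of 7 genes (Ucp1, Slc25a14, Slc25a27, Slc25a30 and the adenine nucleotide carriers Slc25a4, Slc25a5 and Slc25a31), 5 were tested; edgeR called none, 2 had positive and 3 negative log2 fold changes, and the median was -0.09. Slc25a14, which encodes the carrier also called UCP5, stood at 6.20 ± 0.291 CPM in wild-type and 7.63 ± 0.158 CPM in knockout cells (SD, n = 3 each) without overlap (log2 fold change 0.30, edgeR adjusted p = 0.763). No other of the 5 tested had non-overlapping groups, and 10.6% of all genes tested had them. Slc25a4 lay between 390 and 512 CPM in all libraries.

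Sirt3 was among the steadiest of the 8 genes. Its level was 11.3, 9.02 and 14.5 CPM in the wild-type replicates and 12.5, 13.3 and 10.7 CPM in knockout replicates 1 to 3. All 3 knockout values fell inside the wild-type range. The log2 fold change was 0.07 (SE 0.24) (edgeR adjusted p = 0.937), and its 95% interval ran from -0.51 to 0.65, so that changes of more than 2-fold in either direction lay outside it. The exact permutation p was 0.7. 2510039O18Rik followed it most closely over the 6 libraries (r = 0.9879).

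The other 6 sirtuin genes were all tested, with 3 log2 fold changes above and 3 below 0, a median of 0.03 and no call. Sirt7, at -0.01, is counted in 1 locus with Mafg and Pycr1 and has no value of its own. Sirt6, a nuclear deacetylase, had non-overlapping groups at 15.1 ± 1.89 and 18.9 ± 1.59 CPM in wild-type and knockout cells (log2 fold change 0.32, edgeR adjusted p = 0.763). It was the only 1 of these 6 without overlap, and 10.6% of all genes tested had non-overlapping groups. Sirt1 stood at 24.7 ± 9.16 and 17.5 ± 3.26 CPM with overlap. The mitochondrial Sirt4 and Sirt5 had log2 fold changes of -0.01 and 0.13.

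Of 11 genes for proteins that SIRT3 deacetylates, 10 were tested and none was called, with 3 positive and 7 negative log2 fold changes and a median of -0.05. Acadl, a fatty acid oxidation enzyme, was above the wild type in every knockout library, at 119 ± 10.5 against 81.0 ± 18.3 CPM (log2 fold change 0.55, unadjusted p = 0.0335 and adjusted p = 0.763 in edgeR). Glud1, glutamate dehydrogenase, was below it in every knockout library, at 176.5 ± 3.67 against 231 ± 37.4 CPM (log2 fold change -0.39). The NADP-dependent isocitrate dehydrogenase gene Idh2 stood at 57.03 ± 11.2 against 93.4 ± 36.2 CPM, with overlap. The transcription factor gene Foxo3 stood at 124 ± 11.35 against 86.1 ± 34.1 CPM without overlap. The share of tested genes with non-overlapping groups was 10.6% in all (5.18% with the knockout above and 5.44% below), and 3 of these 10 had them.

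The superoxide dismutases differed in how much they varied. Sod1, the cytosolic copper and zinc enzyme, was nearly level, at 64.6, 46.4 and 64.1 CPM in the wild-type replicates, and 59.4, 55.6 and 60.7 CPM in knockout replicates 1 to 3. The knockout values lay inside the wild-type range. The log2 fold change was 0.00 (SE 0.17) and a 95% interval from -0.41 to 0.42 (edgeR adjusted p = 0.996; exact permutation p = 1). The authors' files mark Sod1 as FAIL in wild-type replicates 2 and 3, so those values are less certain. The authors' deposited table gives 92.8 and 94.3 FPKM, but its row for Sod1 runs on to base 90284425, past the end of the locus in the library files.

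Sod2, the manganese enzyme of the mitochondrial matrix, was highest in a knockout library. Its level was 75.5, 42.4 and 96.9 CPM in the wild-type replicates, and 207, 103 and 74.6 CPM in knockout replicates 1 to 3. Knockout replicates 1 and 2 exceeded all wild-type libraries, and knockout replicate 3 lay below wild-type replicates 1 and 3. The means were 71.6 ± 27.4 and 128.3 ± 69.9 CPM (SD, n = 3 each). The log2 fold change was 0.84 (SE 0.47) and a 95% interval from -0.32 to 2.001 (edgeR adjusted p = 0.763; exact permutation p = 0.3). Without knockout replicate 1, the shallowest library and the knockout library with the highest macrophage marker mean, the log2 fold change was 0.31. It was 0.955 with that mean as a covariate. Without the 3 libraries richest in these markers, which leaves 1 wild-type library, it was 0.232. Stx11, a syntaxin gene, followed Sod2 most closely over the libraries (r = 0.9951), ahead of a locus the files name GAPDH in capitals (r = 0.9834).

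Sod3, the secreted enzyme that binds to the extracellular matrix, had a similar mean difference. It stood at 52.5, 25.1 and 87.9 CPM in the wild-type replicates, and at 105.5, 118.8 and 56.2 CPM in knockout replicates 1 to 3. Knockout replicates 1 and 2 were again above all wild-type libraries, while knockout replicate 3 lay between wild-type replicates 1 and 3. The means were 55.1 ± 31.5 and 93.5 ± 33.0 CPM, a log2 fold change of 0.76 (SE 0.51) and a 95% interval from -0.48 to 2.003 (edgeR adjusted p = 0.763; exact permutation p = 0.2). The log2 fold change was 0.43 without wild-type replicate 2 and 1.27 without wild-type replicate 3. The authors' deposited table gives 12.6 and 21.7 FPKM, a log2 fold change of 0.78 and a q-value of 1. Ppp1r11 and Fam73a followed Sod3 most closely (r = 0.9997 and 0.9846), though Ppp1r11 spanned only 45.3 to 57.7 CPM.

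**Figure D3:**
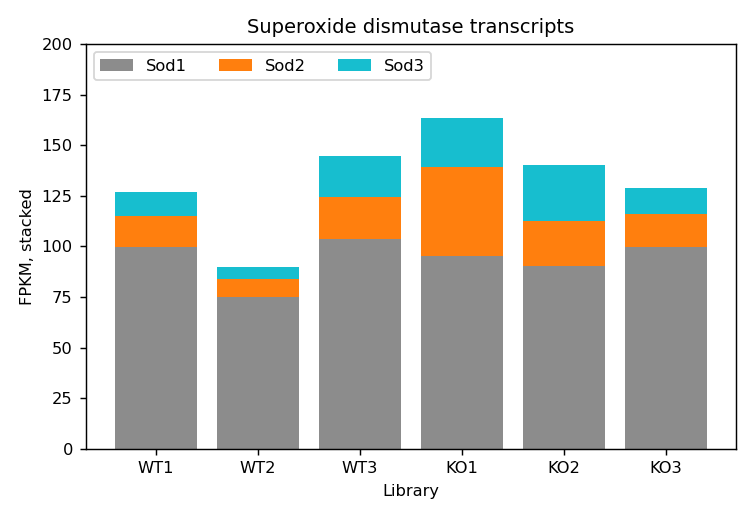
FPKM of Sod1, Sod2 and Sod3 stacked for each library; the height of a bar is their sum. Sod1 makes up 58.4% (KO1) to 83.4% (WT2) of the sum, and Sod2 is highest in KO1 at 43.8 FPKM.

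Per transcript length, Sod1 was the most abundant of the 3 in every library. On the FPKM scale Sod1 made up 78.7%, 83.4% and 71.7% of the summed dismutase level in wild-type replicates 1 to 3, and 58.4%, 64.5% and 77.3% in knockout replicates 1 to 3. Sod2 made up 10.1% to 14.2% in wild-type and 12.4% to 26.8% in knockout libraries, and Sod3 6.47% to 14.1% and 10.2% to 19.7%. The ratio of Sod1 to Sod2 in FPKM was 6.48, 8.26 and 5.07 in wild-type and 2.18, 4.10 and 6.22 in knockout replicates 1 to 3. The groups overlapped through knockout replicate 3, which lay between wild-type replicates 1 and 3. The ratios were chosen after the values were seen and were not tested.

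Genes of copper uptake and delivery were listed because SOD1 and SOD3 carry copper. All 5 (Ccs, Atox1, Atp7a, Slc31a1 and Cox17) were tested and edgeR and DESeq2 called none, 4 log2 fold changes were positive and 1 negative, and the median was 0.02. Ccs, the copper chaperone of SOD1, stood at 31.2 ± 7.26 CPM in wild-type and 38.3 ± 7.63 CPM in knockout cells (log2 fold change 0.30). Atp7a, the pump that loads copper into secreted enzymes, was at 83.2 ± 32.7 and 96.5 ± 9.79 CPM. Groups of all 5 overlapped. Cox17, whose product serves cytochrome c oxidase and not the dismutases, is counted in 1 locus with Popdc2.

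Cat, which encodes catalase, had nearly equal means and a wide spread. Its level was 137.9, 77.5 and 244 CPM in the wild-type replicates, and 185.9, 123.6 and 164.6 CPM in knockout replicates 1 to 3. Wild-type replicates 2 and 3 were the lowest and highest of all 6 libraries, and the knockout libraries lay between them. The means were 153 ± 84.3 and 158 ± 31.7 CPM, with a log2 fold change of 0.05, a standard error of 0.43 and a 95% interval from -0.9987 to 1.09 (edgeR adjusted p = 0.977; exact permutation p = 0.8). Without wild-type replicate 3 the log2 fold change was 0.55, and without wild-type replicate 2 it was -0.26. The genes closest to Cat over the libraries were 0610009B22Rik and Nipa1, a magnesium transporter gene (r = 0.9914 and 0.9901).

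Genes of the peroxiredoxin and thioredoxin systems, which also serve the removal of hydrogen peroxide, had mostly positive differences, none called by edgeR or DESeq2. Of 13 genes tested 9 log2 fold changes were positive and 4 negative, with a median of 0.29. The 13 include Glrx2 and Nnt, and the median is the value of Nnt, which is described again at the end. Every knockout library lay above the wild type for 3 of them (Txnrd1, Srxn1 and Prdx5) and below it for 1 (Prdx4). Over all genes tested these shares were 5.18% and 5.44%. Prdx5 is counted in 1 locus with Esrra and has no value of its own. Txnrd1, the cytosolic thioredoxin reductase, stood at 356 ± 101 CPM in the wild type against 644 ± 89.5 CPM without overlap (log2 fold change 0.855, unadjusted p = 0.014 in edgeR). Srxn1, sulfiredoxin, which repairs overoxidised peroxiredoxins, stood at 166 ± 71.4 CPM in the wild type against 332 ± 85.7 CPM without overlap (log2 fold change 1.004, unadjusted p = 0.0417). Prdx4, the peroxiredoxin of the endoplasmic reticulum, went the other way, at 80.9 ± 13.4 CPM in the wild type against 60.4 ± 3.205 CPM (log2 fold change -0.42, unadjusted p = 0.0391). Prdx6 stood at 194.5 ± 129.9 CPM in the wild type against 375 ± 38.2 CPM with overlap. The mitochondrial Prdx3 and Txn2 had log2 fold changes of -0.22 and 0.01. For Txnrd1, Srxn1, Prdx4 and Prdx6 the edgeR adjusted p was 0.763.

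Genes for enzymes that make superoxide were mostly lower on average in knockout cells, without a call. Of 14 genes of the NADPH oxidases and xanthine oxidase, 13 were found and 11 tested, with 3 positive and 8 negative log2 fold changes, a median of -0.52 and no call by edgeR or DESeq2. The phagocyte oxidase genes Cybb, Ncf1, Ncf4 and Rac2 were lowest in wild-type replicate 1 and highest in wild-type replicate 3, as Ucp2 and most macrophage markers were. Cybb ran from 1.34 to 562 CPM and Ncf1 from 0.368 to 230 CPM within the wild type, and the groups of these 4 overlapped. Nox1 is counted in 1 locus with Xkrx. Nox4, the oxidase of fibroblasts, was level at 13.2 ± 2.78 CPM in wild-type and 13.35 ± 1.755 CPM in knockout cells. Rac1 and Duox1 were the 2 of the 11 with non-overlapping groups, both lower in the knockout, against 10.6% of all genes tested in either direction. Rac1 stood at 351.8 ± 22.55 in wild-type against 311 ± 3.94 CPM in knockout cells (log2 fold change -0.18). The scarce Duox1 stood at 0.471 ± 0.0187 against 0.322 ± 0.117 CPM (log2 fold change -0.52).

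Ppargc1a was scarce but separated the genotypes. It had 83, 11 and 23 fragments in wild-type replicates 1 to 3, or 1.18, 0.258 and 0.476 CPM. The knockout replicates 1 to 3 had 44, 67 and 83 fragments, or 2.07, 1.797 and 1.84 CPM. The knockout libraries were close together and all above the wild type, of which replicate 1 was the nearest. The exact 95% Poisson interval of wild-type replicate 1 reached 1.46 CPM and that of knockout replicate 2 began at 1.39 CPM, so these nearest libraries overlapped in counting error. The means were 0.636 ± 0.479 CPM in wild-type and 1.90 ± 0.145 CPM in knockout cells (SD, n = 3 each), or 2.99-fold higher in the knockout.

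The log2 fold change of Ppargc1a was 1.56 with a standard error of 0.59 and a 95% interval from 0.12 to 3.002 (edgeR unadjusted p = 0.0381, adjusted p = 0.763). The exact permutation p was 0.1, the smallest possible here, and 5.18% of all genes tested had every knockout library above every wild-type library. DESeq2 gave an adjusted p = 0.501. Its FPKM also did not overlap, at 0.340, 0.106 and 0.164 in wild-type and 0.484, 0.492 and 0.461 in knockout replicates 1 to 3. In the authors' deposited table it stands at 0.203 and 0.478 FPKM, with a log2 fold change of 1.23 and a q-value of 1. The value was 1.41 with the macrophage marker mean as a covariate and 2.37 without wild-type replicate 1, and it was 0.63 without the 3 libraries richest in macrophage markers. Hmgxb3 and Hs3st1, a heparan sulfate sulfotransferase gene, followed it most closely (r = 0.9962 and 0.9939), and Hs3st1 ran from 1.94 to 10.1 CPM in wild-type and from 21.3 to 24.7 CPM in knockout libraries.

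**Figure D4:**
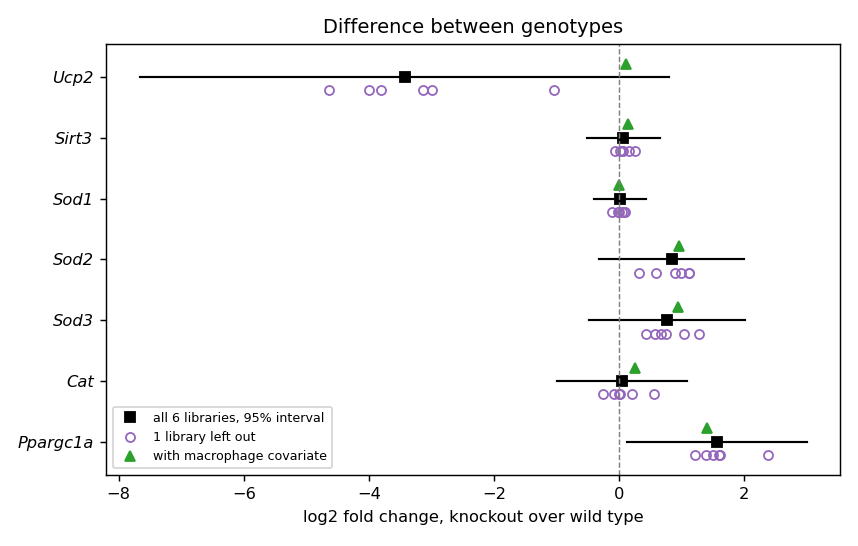
Log2 fold change between the genotypes, positive when higher in the knockout, for the 7 tested genes: black squares with 95% intervals from edgeR on all 6 libraries, open circles with 1 library left out, green triangles with the macrophage marker mean as a covariate. Only the interval of Ppargc1a, 0.12 to 3.002, excludes 0, and only Ucp2 moves from far below 0 (-3.43) to near 0 (0.10) with the covariate.

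The wider PGC-1 network was not shifted to one side. All 14 genes were tested and none was called, with 7 log2 fold changes above and 7 below 0 and a median of -0.04. Among the 7 above 0 is the locus of Esrra and Prdx5, which is also counted in the peroxiredoxin and thioredoxin list. Every knockout library lay above the wild type for 3 of the 14 and below it for 1, against 5.18% and 5.44% of all genes tested. Ppard, a fatty acid-sensing nuclear receptor, stood at 60.3 ± 23.7 CPM in the wild type against 92.8 ± 4.58 CPM without overlap (log2 fold change 0.62). Prkaa2, a catalytic subunit of AMP-activated protein kinase, stood at 3.53 ± 1.915 against 6.695 ± 0.668 CPM, also without overlap (log2 fold change 0.92). The estrogen-related receptor gene Esrra cannot be told apart from Prdx5 because the files count both in 1 locus, which stood at 247 ± 79.3 against 371 ± 53.6 CPM without overlap. Tfb1m, a mitochondrial rRNA methyltransferase, was below the wild type in every knockout library, at 3.60 ± 0.345 against 5.285 ± 1.29 CPM (log2 fold change -0.55). The related coactivator genes Ppargc1b and Pprc1 had log2 fold changes of -0.30 and -0.26 with overlap.

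**Figure D5:**
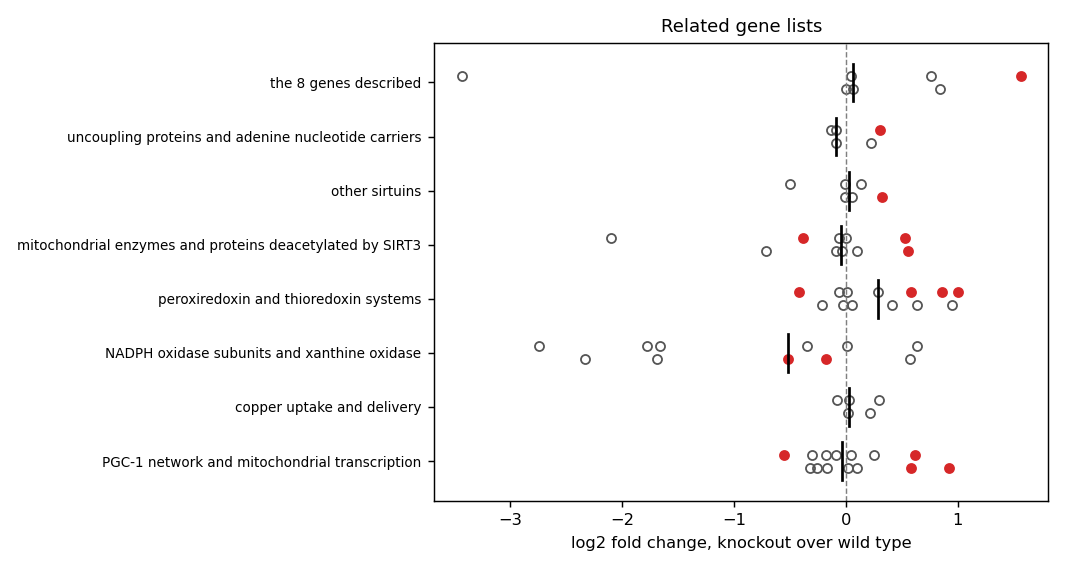
Log2 fold change between the genotypes, positive when higher in the knockout, for each tested gene of the 8 genes described and of 7 related lists; filled red circles are genes whose groups do not overlap, open circles those whose groups do, and vertical bars are list medians. The medians lie between -0.52 (NADPH oxidase list) and 0.29 (peroxiredoxin and thioredoxin list), and Ucp2 is the lowest point at -3.43. The locus shared by Prdx5 and Esrra is drawn in the peroxiredoxin and thioredoxin list and in the PGC-1 list.

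Across the libraries, wild-type replicate 2 stood lowest for most of these genes. Of the 7 tested, 6 (all but Ucp2) had their lowest CPM there, while 28.6% of all genes tested did. Wild-type replicate 3 held the highest value of Ucp2, Sirt3 and Cat, and 28.9% of all genes had their highest value there. Leaving out wild-type replicate 2 brought the log2 fold changes of Sod2 and Sod3 to 0.59 and 0.43 and that of Ppargc1a to 1.21.

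In order of level per transcript length, Sod1 led in 5 of the 6 libraries, at 74.8 to 99.9 FPKM, and Ucp2 led in wild-type replicate 3 at 176.5 FPKM. Cat came next at 24.9 to 78.8 FPKM. Sod2 (14.99 ± 5.73 FPKM in wild-type and 27.3 ± 14.6 in knockout cells) and Sod3 (12.6 ± 7.36 and 21.7 ± 7.53 FPKM) changed places, with Sod2 at 0.798 times Sod3 in knockout replicate 2 and at 1.81 times in knockout replicate 1; the difference between them was not tested. Sirt3 followed at 5.51 ± 1.47 and 5.78 ± 1.14 FPKM. Ppargc1a at 0.203 ± 0.122 and 0.479 ± 0.0162 FPKM and Ucp3 at 0.0363 FPKM or less came last in every library. Ucp2 took places from the first, in wild-type replicate 3, to the sixth, below Sirt3, in wild-type replicate 1 (1.08 FPKM) and knockout replicates 2 and 3.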

How the data were processed

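RNA of 6 libraries, 3 per genotype, was analysed; the labels number no replicates, so the numbers used here follow the order of deposit and pair nothing. CASAVA 1.8.2, Cuffdiff 2.0.1 and TopHat2 2.0.6 are listed per the submitters' processing notes, without roles, as is the build mm10. Per the file headers, each library file gives an estimated count of fragments (raw) and an FPKM per locus; 24.2% of these expected counts above 0 deposited by the authors were not whole (tolerance 1e-06) and all were rounded. The authors' deposited table gives FPKM per genotype, a log2 fold change, a p-value and a q-value.

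Of 39495 loci, 2667 without a gene name (0.507% to 0.555% of fragments) and 16 marked HIDATA were left out; FAIL loci were kept. In R 4.3.3, edgeR 4.0.16 (TMM, filterByExpr, quasi-likelihood F test with robust fitting, Benjamini-Hochberg over all genes) was fitted to the 6 libraries. The standard error is the log2 fold change over the root of F. Library sizes limit precision; Poisson intervals cover counting error only. Alternatives were DESeq2 1.42.0, limma 3.58.1 (voom, and log2(FPKM + 1) or log2(FPKM + 0.1)), RLE, upper quartile, 2 filters, no FAIL loci, a macrophage marker covariate, each library left out and, added after seeing the data, the 3 libraries with most macrophage markers left out. No 2 libraries agreed within sampling noise (chi-square per degree of freedom of 52.1 or more). The genes and lists were chosen with earlier results of these data known. Named were the 8 genes, up to 4 genes of each related list with the smallest p, the 2 genes with the highest Pearson r of log2 CPM to each tested member (mean log2 CPM of at least 2), Stc1, Nnt and markers near 0; the other markers, Sirt7, Nox1, Ucp1, Sirt4, Prdx3, Txn2, Nox4, Cybb, Ncf4, Rac2, Ppargc1b and Pprc1 were added after their values were seen. Values of some genes that this rule names are not reported here.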

Additional observations from a re-analysis of the deposited data

How the results depend on the processing

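edgeR called 0 genes in either direction, with 607 at an unadjusted p under 0.05; DESeq2 called 29 higher and 32 lower, and limma on log2(FPKM + 0.1) called 1 higher and 0 lower. None of the 17 alternatives called any of the 8 genes. With each library left out in turn edgeR again called 0 genes and 0 of the 8, with 270 to 2939 genes at an unadjusted p under 0.05. Sod2, Sod3 and Ppargc1a kept a positive log2 fold change in all 17 alternatives (0.23 to 1.12, 0.43 to 1.27 and 0.30 to 2.37). The lowest Ppargc1a value, 0.302, was with limma on log2(FPKM + 1), a scale that understates low genes, and its adjusted p ran from 0.124 to 1. With 1 library left out the log2 fold change ran from -4.64 to -1.05 for Ucp2, -0.0704 to 0.258 for Sirt3, -0.122 to 0.092 for Sod1 and -0.257 to 0.552 for Cat; Sirt3 was negative without wild-type replicate 2, Sod1 without wild-type replicate 2 or knockout replicate 1 or 3, and Cat without wild-type replicate 1 or 2 or knockout replicate 1. With the macrophage covariate Ucp2 was at 0.104 and Sod1 at -0.0092. Without the 3 libraries with most macrophage markers Ucp2 was at 1.5 and Sod1 at -0.153. The cause was not tested. Sod1 has no value without FAIL loci. No paired analysis was possible because the labels carry no replicate numbers; those used here only name the libraries. Ucp3 is limited by depth.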

Other observations

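Nnt encodes the mitochondrial transhydrogenase that supplies NADPH for removing hydrogen peroxide, and the C57BL/6J substrain is known to carry a deletion in it. Its locus stood at 82.8, 73.6 and 49.3 CPM in wild-type replicates 1 to 3 and at 52.1, 109 and 89.2 CPM in knockout replicates 1 to 3, with overlapping groups (log2 fold change 0.29, edgeR adjusted p = 0.797). The fragments are summed over the whole locus, so these values do not show which exons were present.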
